A study of Mus musculus with 19 samples.

Results

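Neuropeptide precursors and granins were followed through 10 genes of the dorsal hippocampus: the opioid precursors Penk and Pdyn, the tachykinin precursors Tac1 and Tac2, the precursors Crh and Nts, the granin-related cargo genes Vgf, Scg2 and Chgb, and Sstr2. They were chosen by symbol, as genes known to be linked to neuronal activity, and with earlier results of these data known. All 10 were found among the 51789 genes of the count table. Sstr2 is a receptor for somatostatin and not a precursor or granin, and it is counted with the others in the totals of the 10 members.

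The libraries were made from ribosomal-RNA-depleted total RNA of 19 male C57BL/6J mice aged 2 to 4 months. Experiment 1 held mice that were all tTA+ and all exposed to SOR, an abbreviation the labels do not spell out; 5 were DN (tTA+/DN+) and 6 were controls (tTA+/DN-). DN is the Nr4ADN transgene, whose product blocks the Nr4A transcription factors in a dominant-negative way, and tTA is the tetracycline transactivator, which switches on genes under a tet promoter. In experiment 2 every mouse was DN-. There, 4 control mice were exposed to SOR, 1 tTA- and 3 tTA+, and 4 stayed in the homecage, 2 tTA- and 2 tTA+. The labels used here name neither the promoter that drives tTA nor the insertion sites.

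Neuropeptides are made as long precursors, packed into dense-core vesicles, cut to active peptides by prohormone convertases and released mostly during sustained firing. Granins are abundant acidic proteins of the same vesicles; they help to form the vesicle and store its cargo, and some are themselves cut into peptides. In the hippocampus, dynorphin and enkephalin are known from dentate granule cells and their mossy fibres and enkephalin also from interneurons, while Crh and the tachykinins are known mainly from interneurons, and transcription of several of these precursors follows calcium and cyclic AMP signalling.

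The opioid and tachykinin families are defined by a short coding unit that most of these precursors hold in several copies, so the units are shown here for the 4 genes concerned. They were found in GENCODE M21 transcripts, on the coding strand and in the reading frame, and the capitals mark the core of the peptide between 6 flanking bases on either side. The opioid core was searched as the codons TAN, GGN, GGN and TTN followed by ATG, CTN or TTN. The tachykinin end was searched as TTN, any codon, GGN, CTN or TTN, ATG and GGN, of which the capitals show the first 5 codons.
Penk copy 1: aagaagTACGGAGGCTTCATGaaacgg
Penk copy 2: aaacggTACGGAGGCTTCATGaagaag
Penk copy 3: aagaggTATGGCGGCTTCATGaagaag
Penk copy 4: aagaggTATGGGGGCTTCATGagaagc
Penk copy 5: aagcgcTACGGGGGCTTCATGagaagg
Penk copy 6: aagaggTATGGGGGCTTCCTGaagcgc
Penk copy 7: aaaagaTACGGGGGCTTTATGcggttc
Pdyn copy 1: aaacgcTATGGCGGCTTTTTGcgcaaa
Pdyn copy 2: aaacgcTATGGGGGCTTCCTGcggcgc
Pdyn copy 3: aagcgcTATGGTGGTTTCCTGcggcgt
Tac1 copy 1: cagcagTTCTTTGGATTAATGggcaag
Tac1 copy 2: gattccTTTGTTGGACTAATGggcaaa
Tac2 copy 1: gacttcTTTGTGGGACTTATGggcaag

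Penk thus held 7 enkephalin units in an open reading frame of 807 bases, 6 ending in ATG and 1 in CTG. Pdyn held 3 units in 747 bases, none of them ending in ATG. Tac1 held 2 tachykinin units in 393 bases and Tac2 held 1 in 351 bases.

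Because several members are known targets of cyclic AMP signalling, their start regions were searched for the cyclic AMP response element TGACGTCA on both strands. RefSeq windows of GRCm38.p6, reaching from 250 bases before to 50 after a gene's start, matched 7 of the 10 members; Penk, Crh and Vgf had no window. The motif lay in 3 of the 7 members, Scg2, Chgb and Sstr2, and in 588 of all 32851 windows (1.79%). The sites are given 5′ to 3′ on the gene's strand, with the motif in capitals.
Scg2, chr1:79440076-79440105, minus strand: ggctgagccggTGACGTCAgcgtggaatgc
Chgb, chr2:132781559-132781588, plus strand: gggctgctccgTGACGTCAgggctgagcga
Sstr2, chr11:113619258-113619287, plus strand: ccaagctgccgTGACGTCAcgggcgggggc

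The motif began 68, 72 and 58 bases before the RefSeq start of Scg2, Chgb and Sstr2. In GENCODE M21 the Scg2 and Chgb sites fall within an annotated exon, and the Sstr2 site does not. Its first 5 letters, TGACG, were in the windows of 5 of the 7 members and in 20.8% of all windows. The site AAAGGTCA, known to bind Nr4A proteins as monomers, was in 0 of the 7 and in 1.51% of all windows. The AP-1 site TGAGTCA was in the window of 1 member, Nts, and in 5.2% of all windows. These are matches of letters and not measured binding.

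Library totals ranged from 22258159 to 66991576 counts. The lowest total was that of SOR replicate 3 in experiment 2. Choroid plexus markers summed to over 500 CPM (counts scaled to the library total) in 5 libraries, namely replicates 1 and 2 of the experiment 1 controls, replicate 2 of the DN group, and replicates 1 (tTA-) and 2 (tTA+) of the SOR group in experiment 2. The other 14 libraries ranged from 18.4 to 170.2 CPM. The 5 markers of the medial habenula, a peptide-rich neighbour, summed to 11.9 to 22.4 CPM. Of these, Pou4f1 had 0 to 4, Chrnb4 0 to 13, Gng8 12 to 59, Chrna3 40 to 160 and Lrrc55 200 to 1026 counts per library; their part in the levels of the members was not tested.

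The members spanned a wide range of levels. Per kilobase of exon, in the 4 homecage mice of both tTA genotypes, Chgb was highest at 236 ± 32.5 CPM per kb (SD, n = 4), followed by Scg2 at 95.7 ± 23.3. Then came Vgf at 11.2 ± 0.740, Penk at 9.56 ± 4.57, Nts at 5.86 ± 1.47, Sstr2 at 4.26 ± 1.42 and Pdyn at 3.22 ± 1.46 CPM per kb. Tac2 at 1.78 ± 1.04, Tac1 at 1.75 ± 0.304 and Crh at 0.862 ± 0.161 CPM per kb were lowest. Only Chgb and Scg2, Scg2 and Vgf, and Tac1 and Crh did not overlap as neighbours in this order. The libraries of each other neighbouring pair overlapped. The order differed between the genotypes pooled here: in the 2 tTA- mice Penk, at 13.4 CPM per kb, was above Vgf, at 11.4, and Tac2, at 0.895, was below Tac1, at 1.66. In the 2 tTA+ mice Nts, at 7.13 CPM per kb, was above Penk, at 5.73, and Tac2, at 2.66, was above Pdyn, at 1.98.

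The largest differences among the members went with the tTA genotype of the control mice in experiment 2. Comparing 5 tTA+ with 3 tTA- mice, with exposure in the model, asked which genes differed with the tTA genotype in mice without DN. The transactivator and its insertion site cannot be told apart in this comparison. Penk and Scg2 were lower and Tac2 was higher in tTA+ mice, with an adjusted p under 0.05; Pdyn and Sstr2 had an unadjusted p under 0.05 and were not called by edgeR in this fit, while DESeq2, edgeR with no filter on low counts and the joint fit of all 19 libraries each called them too. Thus 3 of 10 members were called, against 0.358% of the 22904 genes tested (0.249% lower and 0.109% higher). Since the members were chosen with earlier results of these data known, these shares are a description. In 4 members, Penk, Pdyn, Scg2 and Tac2, the genotypes did not overlap, against 5.80% of all genes; 3 were lower (3.40% of all genes) and 1 was higher (2.40%). The median log2 fold change of the 10 members was 0.03, and that of all genes tested 0.01.

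Penk (ENSMUSG00000045573.9, GRCm38 chromosome 4, 4133531 to 4138819, minus strand, 5 exons) encodes proenkephalin. It was at 21.03, 21.3 and 22.4 CPM in the tTA- mice, namely SOR replicate 1 and homecage replicates 1 and 2. Among the tTA+ mice, SOR replicates 2 to 4 had 6.67, 11.9 and 10.2 CPM, and homecage replicates 3 and 4 had 11.6 and 7.09 CPM. All 3 tTA- mice lay above all 5 tTA+ mice, whether from SOR or homecage. The tTA- mean was 21.6 ± 0.709 CPM (SD, n = 3) and the tTA+ mean 9.50 ± 2.48 CPM (SD, n = 5), and the log2 fold change was -1.18 (SE 0.201, edgeR adjusted p = 0.0414). Of the exon length of Penk, 14.3% overlaps the antisense gene A830012C17Rik, which had 0 to 10 counts per library. The use of strand in counting is not given in the sources used here.

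Pdyn (ENSMUSG00000027400.11, chromosome 2, 129686565 to 129699844, minus strand, 8 exons) encodes prodynorphin, the precursor of ligands of the kappa opioid receptor. It was at 14.6, 13.4 and 12.4 CPM in the tTA- mice, against 3.35, 8.47 and 5.004 CPM in the tTA+ SOR mice and 6.50 and 4.91 CPM in the tTA+ homecage mice. The genotypes were again apart, with SOR replicate 3 the highest of the tTA+ mice. Its log2 fold change of -1.27 (SE 0.246) was close to that of Penk, and the edgeR adjusted p was 0.0833.

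Scg2 (ENSMUSG00000050711.7, chromosome 1, 79434669 to 79440120, minus strand, 5 exons) encodes secretogranin II, the granin from which secretoneurin is cut. It was at 315, 299.8 and 282 CPM in the tTA- mice. The tTA+ mice had 172, 227 and 214 CPM after SOR and 189 and 192 CPM in the homecage. The lowest tTA- mouse was above the highest tTA+ mouse, and the log2 fold change was -0.61 (SE 0.101, edgeR adjusted p = 0.0341).

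Tac2 (ENSMUSG00000025400.11, chromosome 10, 127724478 to 127731768, plus strand, 13 exons) encodes the precursor of neurokinin B, and it moved the opposite way. It was at 1.602, 1.44 and 1.03 CPM in the tTA- mice, against 3.40, 5.96 and 3.78 CPM in the tTA+ SOR mice and 3.90 and 3.44 CPM in the tTA+ homecage mice. These levels rest on 43 to 77 counts per tTA- library and 126 to 266 per tTA+ library, and gave a log2 fold change of 1.52 (SE 0.243, edgeR adjusted p = 0.0299).

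Sstr2 (ENSMUSG00000047904.6, chromosome 11, 113619342 to 113626028, plus strand, 7 exons) encodes a receptor that inhibits neurons when somatostatin binds. It was at 9.38, 6.47 and 7.39 CPM in the tTA- mice, and at 11.8, 13.3 and 13.01 CPM in the tTA+ SOR mice and 13.3 and 9.30 CPM in the tTA+ homecage mice. The genotypes overlapped through tTA- SOR replicate 1 and tTA+ homecage replicate 4, with a log2 fold change of 0.59 (SE 0.147, edgeR adjusted p = 0.240).

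**Figure D1:**
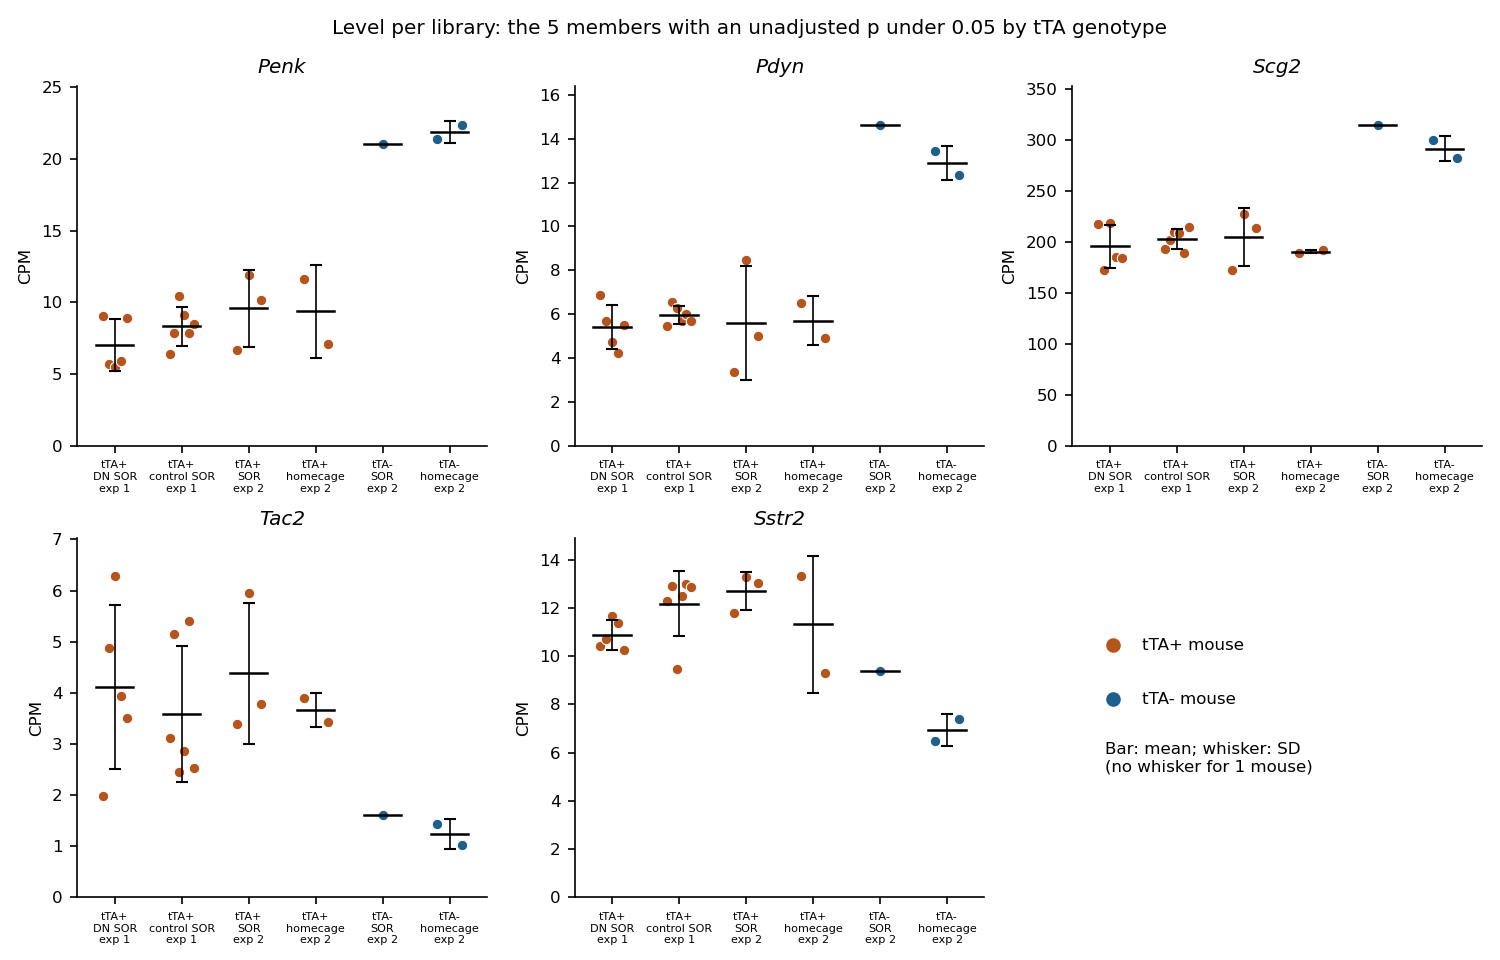
Level in CPM (vertical axis, from 0) of Penk, Pdyn, Scg2, Tac2 and Sstr2 in each of the 19 libraries, by tTA genotype, group and experiment; points are mice, bars the mean and whiskers the SD. The 3 tTA- mice lie above every tTA+ mouse of experiment 2 in Penk, Pdyn and Scg2 and below every one in Tac2.

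The other 5 members had log2 fold changes by tTA of 0.02 for Tac1, 0.19 for Crh, 0.22 for Nts, 0.04 for Vgf and -0.16 for Chgb, none called by edgeR (adjusted p = 1.0 for each). Their genotypes overlapped. Nts (ENSMUSG00000019890.4, chromosome 10, 102481756 to 102490486, minus strand), the precursor of neurotensin, was at 8.13, 5.60 and 5.88 CPM in the tTA- mice. The tTA+ mice had 5.68, 5.54 and 8.57 CPM after SOR, against 9.07 and 8.72 CPM for those of the homecage. Its tTA+ homecage mice lay above both tTA- homecage mice, but its SOR mice did not follow that order. Chgb (ENSMUSG00000027350.8, chromosome 2, 132781278 to 132795079, plus strand), the granin chromogranin B, was at 709, 761 and 671 CPM in the tTA- mice. The tTA+ mice had 662, 910.0 and 609 CPM after SOR, and 565 and 588 CPM in the homecage. The overlap came from SOR replicate 3, the smallest library, and the other 4 tTA+ mice lay below all tTA- mice. Without that library the log2 fold change of Chgb was -0.25 and in homecage mice alone -0.31, and it was called in neither fit. Whether Chgb and Scg2 differ in their response was not tested.

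The tTA calls changed when a library was left out. Leaving out 1 of the 8 libraries in turn gave 0 called members in 6 fits. Those were the fits without homecage replicate 1, 2, 3 or 4 or without SOR replicate 1 or 4. There were 4 called members without SOR replicate 2 or without SOR replicate 3. Of all genes, 107 of 22666 were called without SOR replicate 2 and 290 of 22809 without SOR replicate 3. In the other 6 fits 10 to 55 genes were called. The fold changes moved little: -1.37 to -1.03 for Penk, -1.43 to -1.16 for Pdyn, -0.65 to -0.57 for Scg2, 1.401 to 1.62 for Tac2 and 0.43 to 0.71 for Sstr2. The unadjusted edgeR p of these 5 members was at most 0.0133 in the 8 fits. Without the choroid plexus-rich SOR replicates 1 and 2 the log2 fold changes of Penk, Pdyn, Scg2 and Tac2 were -1.22, -1.17, -0.61 and 1.59, those of Nts, Chgb and Sstr2 were 0.63, -0.31 and 0.71, and 0 members were called at an adjusted p under 0.05, 6 having an unadjusted p under 0.05. Of all 23125 genes in that fit, 15 were called and 1552 had an unadjusted edgeR p under 0.05. In homecage mice alone, 2 against 2, 6 members were called, where 4.17% of 22617 genes were called. Nts was the sixth, with a log2 fold change of 0.63. In the fits without SOR replicate 1 or without the rich SOR libraries, every SOR mouse left is tTA+. With exposure in the model, these fits compare the genotypes only among the same homecage mice and are not separate checks.

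**Figure D2:**
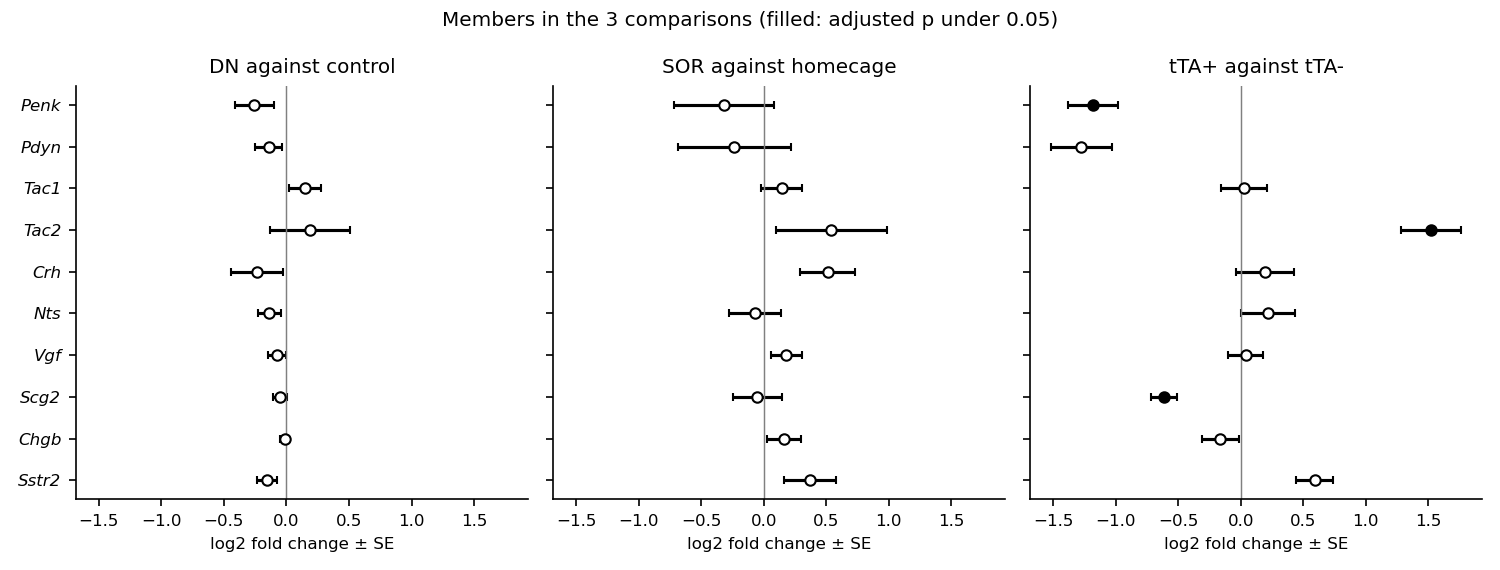
Log2 fold change (horizontal axis) with its SE for each of the 10 members in the 3 comparisons. Filled points are called at an adjusted p under 0.05, and those are Penk, Scg2 and Tac2 by tTA genotype.

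The 11 tTA+ mice of experiment 1 entered none of the tTA fits above except the joint fit of all 19 libraries, where they share in the estimate of the spread, and are given as a description, since the experiments are separate batches by the labels. Penk was at 7.74 ± 1.65 CPM in them (SD, n = 11), with a highest library of 10.4 CPM. Pdyn was at 5.71 ± 0.757, Scg2 at 199 ± 15.6, Tac2 at 3.83 ± 1.41 and Sstr2 at 11.6 ± 1.23 CPM (SD, n = 11). For each of these 5 genes the mean of experiment 1 was nearer to the tTA+ mean of experiment 2, and no library of experiment 1 reached the range of the tTA- mice. When all 19 libraries were scaled together, Sstr2 did overlap the tTA- range. For the other 5 members the libraries of experiment 1 overlapped the tTA- mice, and the mean was nearer to tTA- for Tac1, Vgf and Chgb and nearer to tTA+ for Crh and Nts.

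Of 6 markers of dentate granule cells, where dynorphin and enkephalin are known to be made, 3 were called by tTA, in both directions. Their summed level was 394 to 480 CPM in tTA- mice and 272 to 351 CPM in tTA+ mice of experiment 2. C1ql2 (-2.19) and Dsp (-1.06) were called lower and Tdo2 (0.88) higher, Lct was at -0.01 and Plk5 at 0.03, and Prox1, the defining transcription factor, had a log2 fold change of -0.67 and was not called (edgeR adjusted p = 0.350). Of 6 neocortical markers 1 was called, Tbr1 at 1.63; the list had 4 above 0 and a median of 0.17. Inhibitory interneuron markers had 0 of 6 called, 2 with an unadjusted edgeR p under 0.05, and a median of 0.23. Striatal markers summed to 40.3 to 48.5 CPM in tTA- and 56.4 to 67.8 CPM in tTA+ mice, with 0 of 6 tested called by edgeR and 2 at an unadjusted p under 0.05. In whole tissue, fewer cells of a type and less RNA per cell cannot be told apart, and the part of these markers in the differences of the members was not tested.

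Correlations between members differed between all 19 libraries and the 16 tTA+ libraries. With log2 CPM centred on the mean of each experiment, Penk and Pdyn had a Pearson r of 0.90, Pdyn and Scg2 of 0.87 and Penk and Scg2 of 0.84, while Tac2 and Sstr2 had 0.73. Within the 16 tTA+ libraries these were 0.74, 0.54, 0.53 and 0.37. Penk and Tac2 had -0.73 in all 19 and -0.32 in the tTA+ libraries. These are descriptions over libraries that share batches and groups, and these 5 values were nearer to 0 within the tTA+ libraries. Others were higher there: Tac1 and Scg2 had 0.64 against 0.28 in all 19, Crh and Scg2 0.63 against 0.09, Vgf and Chgb 0.64 against 0.50 and Tac2 and Vgf 0.62 against 0.47.

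**Figure D3:**
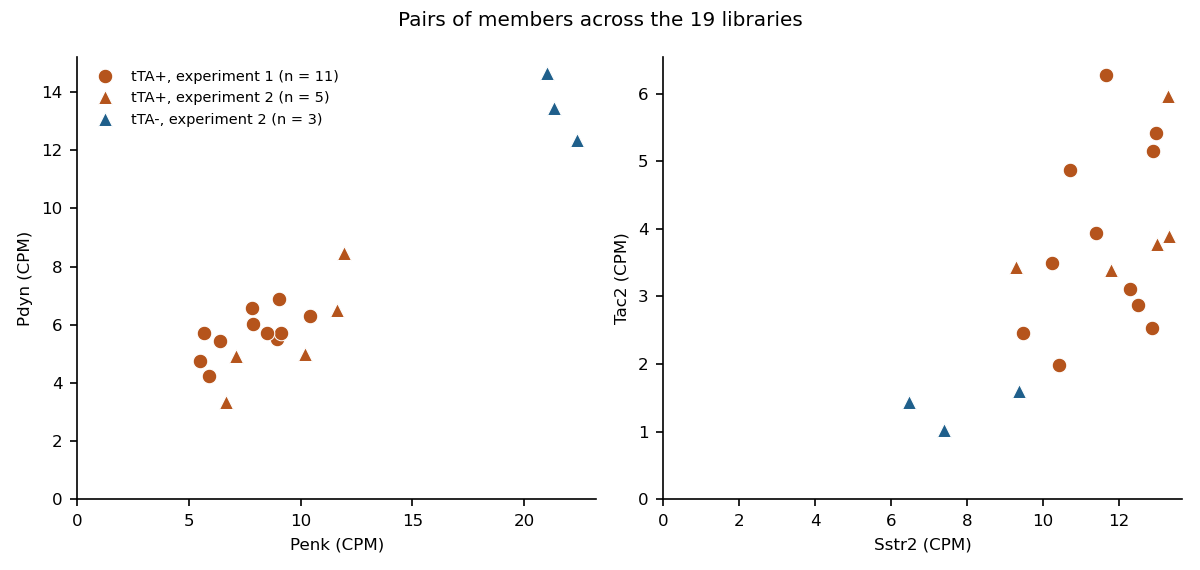
Pdyn against Penk (left) and Tac2 against Sstr2 (right), both axes in CPM, 1 point per library; colour gives the tTA genotype and shape the experiment. On the left the tTA- mice form a separate group above 20 CPM of Penk and 12 CPM of Pdyn.

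No member was called between the 5 DN and 6 control mice of experiment 1, a comparison that asked what blocking Nr4A function changes after SOR. edgeR called 0 of 10 members, against 0.00893% of 22391 genes (2 genes), and 0 members had an unadjusted p under 0.05, against 3.83% of all genes; DESeq2 gave 0 in both counts. With 1 library left out the second count was 3 without DN replicate 1 and 2 without DN replicate 3. It was 1 without DN replicate 5, control replicate 1 or control replicate 3, and 0 in the other 6 fits. Of all genes, 1235 of 22574 had such a p without DN replicate 1 and 872 of 22747 without DN replicate 3. Without DN replicate 5, control replicate 1 or control replicate 3 these were 748 of 22720, 998 of 22338 and 1097 of 22032. The log2 fold change was below 0 in 8 members, against 50.0% of all genes. The groups overlapped in all 10 members, while 0.299% of all genes did not overlap. The members' median was -0.11, and that of all genes 6.2e-05.

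DN replicates 1 to 5 had 9.05, 5.68, 5.47, 5.90 and 8.94 CPM of Penk. In the controls its lowest, median and highest values were 6.39, 8.17 and 10.4 CPM. DN replicates 2, 3 and 4 lay below every control and the other 2 within the range of the controls. Its log2 fold change was -0.26 (SE 0.155, edgeR adjusted p = 0.999). The DN mice had 10.4, 10.7, 11.7, 11.4 and 10.2 CPM of Sstr2, and its lowest, median and highest control values were 9.48, 12.7 and 12.98 CPM. Replicate 3 alone of the controls lay below 12 CPM. The log2 fold change of Sstr2 was -0.16 (SE 0.0797, edgeR adjusted p = 0.999).

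The 8 remaining members were closer to 0 or noisier. Log2 fold changes with DN were -0.14 for Pdyn, 0.15 for Tac1, 0.19 for Tac2, -0.24 for Crh, -0.14 for Nts, -0.08 for Vgf, -0.05 for Scg2 and -0.01 for Chgb. With 1 library left out they ranged from -0.25 to -0.06 for Pdyn, 0.07 to 0.22 for Tac1, -0.01 to 0.37 for Tac2, -0.44 to -0.15 for Crh, -0.20 to -0.08 for Nts, -0.11 to -0.03 for Vgf and -0.09 to -0.01 for Scg2. Chgb was the steadiest, at 717 ± 40.4 CPM (SD, n = 5) in DN and 724 ± 19.8 CPM (SD, n = 6) in control mice. Tac2 varied most in this experiment, from 1.99 to 6.28 CPM in DN and from 2.45 to 5.41 CPM in control mice. Activity-regulated genes, for comparison, had a median of -0.32, with 11 of 12 below 0, 0 called by edgeR and 1 at an unadjusted p under 0.05.

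Exposure to SOR was compared with the homecage in the 8 mice of experiment 2, which asked what the exposure changes in controls. No member was called by edgeR, against 0.0897% of 22305 genes, or by DESeq2. Only Crh had an unadjusted p under 0.05, in either tool, where 7.60% of all genes had one in edgeR. The SOR and homecage mice overlapped in all 10 members, while 5.71% of all genes did not overlap. In the same mice 2 of 12 activity-regulated genes were called higher, Fos at 1.17 and Arc at 0.79, and 11 of 12 were above 0 with a median of 0.58. The members' median was 0.15 and that of all genes 0.01. The members are called activity-linked from background knowledge, and no called change after this exposure stands behind that name.

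Crh (ENSMUSG00000049796.4, chromosome 3, 19693401 to 19695396, minus strand, 2 exons), the precursor of corticotropin-releasing hormone, was at 1.602, 1.23, 1.99 and 1.76 CPM after SOR. The homecage mice had 1.04, 0.979, 1.08 and 1.45 CPM. The groups overlapped through SOR replicate 2 and homecage replicate 4. The log2 fold change was 0.51 (SE 0.221, edgeR unadjusted p = 0.0395, adjusted p = 0.642), from 30 to 95 counts per library over the series. With tTA as a covariate the unadjusted edgeR p of Crh was 0.0588, and in tTA+ mice alone it was 0.282, so that 0 members had an unadjusted p under 0.05 in either fit.

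Vgf (ENSMUSG00000037428.14, chromosome 5, 137026392 to 137033351, plus strand, 11 exons), a granin-like precursor whose transcription is known to follow neurotrophins and activity, was at 34.6, 39.2, 46.6 and 30.8 CPM after SOR. In the homecage it was at 31.5, 36.3, 33.3 and 31.8 CPM. SOR replicate 4 was the lowest of all 8. Vgf had a log2 fold change of 0.18 and Chgb of 0.16, neither called; without SOR replicate 3 these were 0.07 and 0.03. SOR replicate 3, the smallest library, held the highest Vgf and Chgb values, at 46.6 and 910.0 CPM. Tac1 (ENSMUSG00000061762.12, chromosome 6, 7554879 to 7565834, plus strand, 15 exons), the precursor of substance P and neurokinin A, had 6.99, 5.46, 7.90 and 5.99 CPM after SOR, and the homecage mice had 5.46, 5.83, 5.04 and 7.41 CPM, a log2 fold change of 0.14 with overlapping groups. It was 0.05 without SOR replicate 3 and 0.27 without homecage replicate 4.

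The tTA genotypes were uneven between these groups, so the 5 members with an unadjusted p under 0.05 by tTA are given with and without tTA in the model. Without tTA in the model, the log2 fold changes after SOR were -0.32 for Penk (SE 0.401), -0.23 for Pdyn (SE 0.451), -0.05 for Scg2, 0.54 for Tac2 (SE 0.445) and 0.37 for Sstr2. With 1 library left out they ranged from -0.71 to -0.09 for Penk, -0.75 to 0.02 for Pdyn, -0.23 to 0.07 for Scg2, 0.23 to 0.87 for Tac2 and 0.23 to 0.61 for Sstr2. With tTA as a covariate they were -0.01, 0.03, 0.11, 0.29 and 0.26, and none was called. Choroid plexus markers had a median of 2.62 in this comparison, all 8 above 0, with 0 called by edgeR and 5 at an unadjusted p under 0.05; the markers summed to 22.4 to 2190 CPM after SOR and 43.2 to 170.0 CPM in the homecage. Their part in the values of the members was not tested; with the 2 rich SOR libraries left out, edgeR called 0 members, Crh alone had an unadjusted p under 0.05, and the log2 fold changes were -0.50 for Penk, -0.48 for Pdyn, -0.13 for Scg2, 0.94 for Tac2 and 0.51 for Sstr2.

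**Figure D4:**
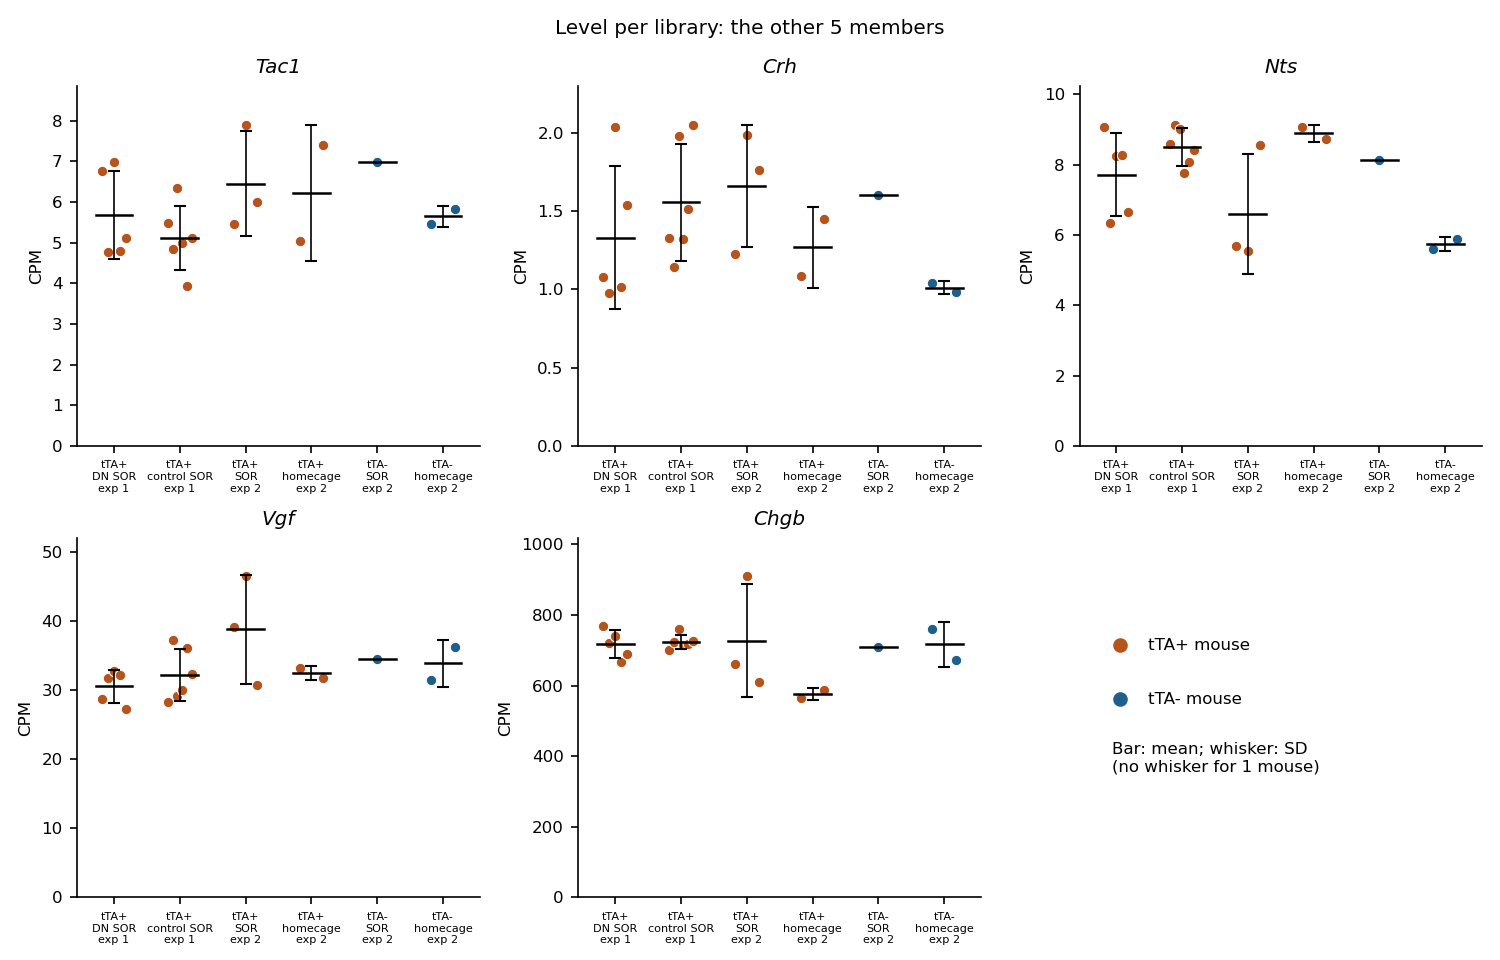
Level in CPM (vertical axis, from 0) of Tac1, Crh, Nts, Vgf and Chgb in each of the 19 libraries, by tTA genotype, group and experiment; points are mice, bars the mean and whiskers the SD. SOR and homecage mice of experiment 2 overlap in all 5 genes, as do the DN and control mice of experiment 1.

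The rest of the peptide system was described from 46 genes: 12 other precursors, 4 other granin-family genes, 6 processing enzymes, 8 genes of vesicles and release, 12 peptide receptors and 4 other somatostatin receptors. By tTA, 2 of 45 tested were called, both lower, and 9 had an unadjusted p under 0.05, against 0.358% and 5.71% of all genes. The median of the 45 was 0.06. These lists too were chosen with earlier results of these data known. Syt10, a calcium sensor of vesicle fusion, had 9.42 ± 1.69 CPM (SD, n = 5) with tTA and 14.2 ± 2.37 CPM (SD, n = 3) without it, and its log2 fold change was -0.72 (SE 0.105, edgeR adjusted p = 0.0192). Ptprn2, a phosphatase-like protein of dense-core vesicles, had 139 ± 16.0 CPM (SD, n = 5) against 227 ± 13.2 CPM (SD, n = 3), which gave -0.71 on the log2 scale (SE 0.113, edgeR adjusted p = 0.0276).

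Among the genes of these lists that were not called by tTA, the precursor Grp, which encodes gastrin-releasing peptide, had a log2 fold change of -0.95 (SE 0.332) and Cort, which encodes cortistatin, -0.40. Of the granin family, Chga was at 0.30 and Scg5, the chaperone of prohormone convertase PC2, at 0.24. The convertase gene Pcsk2 itself was at 0.22 and the glutaminyl cyclase Qpct at 0.25. Among receptors and binding proteins, the delta opioid receptor Oprd1, which binds enkephalin, was at -0.31 and the Crh-binding protein Crhbp at -0.26. Sstr1 was at -0.68 (SE 0.179, edgeR adjusted p = 0.290) and Sstr4 at -0.22, and the other somatostatin receptors, Sstr3 and Sstr5, at 0.18 and 0.75 (SE 0.649), so the 4 divided evenly in sign.

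**Figure D5:**
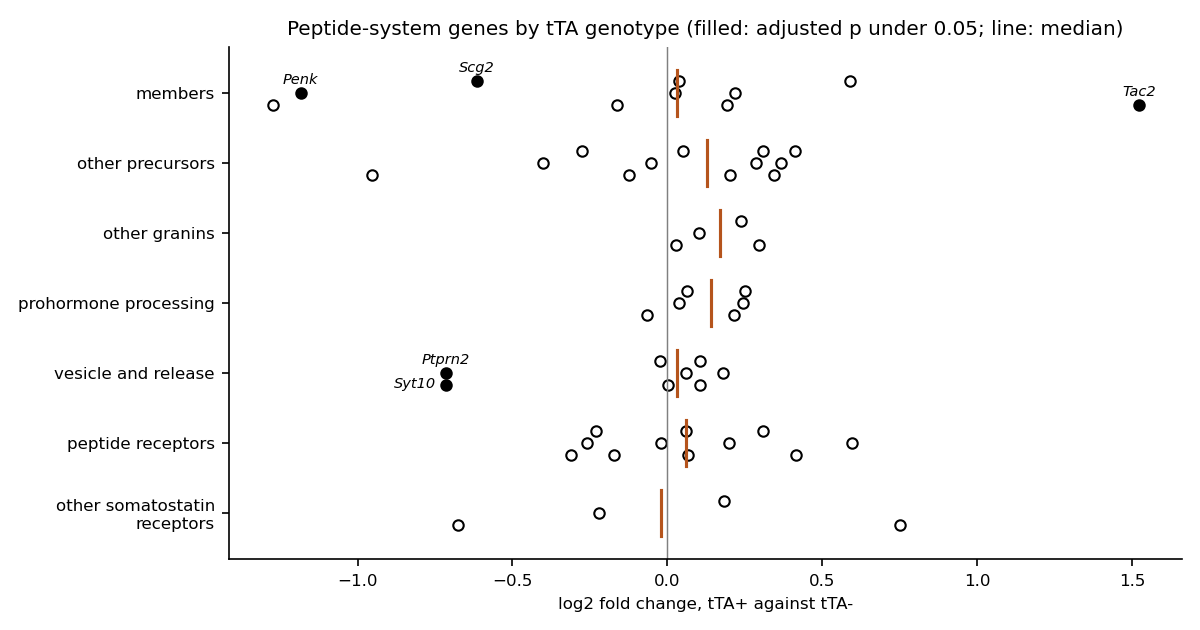
Log2 fold change of tTA+ against tTA- mice (horizontal axis) for the 10 members and the 6 lists of peptide-system genes, 1 point per gene, filled where called, with a line at each list's median. Outside the members only Ptprn2 and Syt10 are filled.

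With DN, 0 of 44 tested peptide-system genes were called by edgeR and 2 had an unadjusted p under 0.05, against 3.83% of all genes: Oprm1, the mu opioid receptor, at 0.31 and Pcsk1n, a granin-like inhibitor of the convertase PC1/3, at -0.11. The others with the smallest p in their lists were Grp at 0.26 (0.02 without DN replicate 4), Sst at 0.06, Scg5 at -0.02, Oprd1 at 0.12, Qpct at 0.12, the convertase gene Furin at -0.06, Rab3b at -0.06, Syt4 at -0.06, Sstr3 at 0.10 and Sstr4 at -0.09. After SOR, 0 of 44 were called by edgeR and 3 had an unadjusted p under 0.05, against 7.60% of all genes: Vip, the precursor of vasoactive intestinal peptide, at 0.45, Pcsk1, the gene of PC1/3, at 0.43 and Oprm1 at -0.44. Cck, the precursor of cholecystokinin, was at 0.39, Chga at 0.22, Pcsk1n at 0.44 (-0.04 without SOR replicate 3) and the neurokinin B receptor gene Tacr3 at -0.89 (SE 0.592). The carboxypeptidase gene Cpe was at 0.15, Sstr1 at -0.22, Sstr3 at 0.03, Syt10 at 0.26 and Ptprn2 at -0.19. With 1 library left out, Cck ranged from 0.11 to 0.49, Tacr3 from -1.32 to -0.38 and Sstr1 from -0.46 to -0.03.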

How the data were processed

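The authors deposited whole-number counts per gene for all 19 libraries in 1 table. Total RNA taken with Trizol went into TruSeq libraries after ribosomal depletion by Ribo-Zero Gold, per the labels' protocols. The submitters' processing notes name STAR, SAMtools 1.6 and featureCounts 1.4.4 and the build mm10; the annotation and the use of strand are not given in the sources used here. Symbols came from GENCODE M21, which held 51596 of 51789 identifiers.

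Each experiment was fitted alone over all genes with edgeR 4.0.16 (quasi-likelihood F test, robust, two-sided, TMM, filterByExpr; R 4.3.3). P-values were adjusted by Benjamini-Hochberg, and a gene is called at an adjusted p under 0.05. An SE equals the size of the log2 fold change over the root of F. CPM was computed from the counts with TMM scaling within an experiment, and log2 CPM used a prior count of 2. Libraries of a group differed by a chi-square per degree of freedom of 4.63 to 73.4 over genes with at least 20 counts, so none was counted as a repeat. Reads carried no molecular identifiers. The labels do not say that replicates came from separate litters, so p-values measure the spread between these libraries. The fits were tested on simulated data.

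The members and gene lists were chosen with earlier results of these data known. All 10 members are named, then called genes of the 6 peptide-system lists and the 2 with the smallest p per list and comparison; a motif search and the interaction of exposure and tTA were added after the data were seen. The 2 genes most like each member were named by Pearson r. Alternatives were DESeq2 1.42.0, DESeq2's size factors, no filter on low counts, a joint fit of all 19 libraries, tTA as a covariate, a replicate block, 1 genotype or exposure alone, an adjusted p under 0.1, each library left out, and, chosen after seeing the data, the choroid plexus-rich libraries left out.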

Additional observations from a re-analysis of the deposited data

Results flagged for a closer look

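Sstr2 in replicate 3 of the experiment 1 controls, at 9.48 CPM, lay far below the other 5 controls, at 12.3 to 12.98 CPM, with a gap of 0.802 of the group's range. It was the only such case among 40 groups of values examined, where chance gives about 1 in 20.

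The change of Nts with SOR differed between tTA+ and tTA- mice by -0.93 on the log2 scale (SE 0.352, edgeR unadjusted p = 0.0283, adjusted p = 0.9998). This interaction rests on 1 tTA- SOR mouse, and edgeR called 0 of 22305 genes for it; it fails the correction.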

How the results depend on the processing

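With DN, 2 genes and 0 members were called under every alternative run, and after SOR 0 members. Genes called after SOR numbered 20, and 36 with no filter, 118 with DESeq2, 145 with all 19 libraries, 9 with the replicate block, 11 with tTA as a covariate, 0 in tTA+ mice alone, 1 without the choroid plexus-rich libraries, 35 at an adjusted p under 0.1 and 1 to 50 with 1 library left out. By tTA they numbered 82, and in the same settings 265, 250, 383 and 0 (replicate block), then 944 in homecage mice alone, 15 without the rich libraries, 133 at the looser threshold and 10 to 290. Members called by tTA were 3, and 5 with no filter, with DESeq2 and with all 19 libraries, 0 with the replicate block, 6 in homecage mice alone, 0 without the rich libraries and 0 to 4 with 1 library left out. The replicate numbers share no stated litter or day, and same-numbered libraries deviated with correlations from -0.05 to 0.39, so the block is not taken as a pairing. With the replicate block the log2 fold changes by tTA were -1.92 for Penk, -2.06 for Pdyn, -0.88 for Scg2, 1.41 for Tac2 and 0.34 for Sstr2. The block tells tTA apart only within replicate 2, since the mice of each other replicate number share a genotype. These folds and the lost calls thus rest on 1 mouse of each genotype. The fits of homecage mice alone and without the rich libraries compare the genotypes among the same homecage mice.

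The sign of some values turned, among them Pcsk1n after SOR, from 0.44 to below 0 without SOR replicate 3. After SOR, tTA as a covariate gave Pdyn 0.032, Scg2 0.11, Sstr3 -0.020 and Ptprn2 0.020, and tTA+ mice alone gave Penk 0.021, Scg2 0.10 and Ptprn2 0.11. By tTA, the replicate block, which rests on 1 mouse of each genotype, gave Tac1 -0.32, Crh -0.26, Vgf -0.078 and Scg5 -0.0057. Vgf by tTA was at -0.061 in homecage mice alone and at -0.063 without the rich libraries. Leaving out 1 library gave, with DN, Tac2 -0.012 to 0.37, Chgb -0.042 to 0.0098 and Scg5 -0.029 to 0.0043. After SOR it gave Pdyn -0.75 to 0.025, Nts -0.18 to 0.055, Scg2 -0.23 to 0.067, Pcsk1n -0.043 to 0.60 and Sstr3 -0.019 to 0.11, and by tTA Tac1 -0.14 to 0.14 and Vgf -0.059 to 0.11. The cause was not tested. Among the 10 members depth limits Crh most, at 30 to 95 counts per library; of the other peptide-system genes Trh had 0 to 19 and Gal 5 to 23.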

Other observations

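The genes whose level was most like that of each member are given as a description, by Pearson r of log2 CPM centred on the mean of each experiment, over 19 libraries and 21740 genes, with the r in the 16 tTA+ libraries beside it. For Penk they were Pla2g2f (0.92 and 0.79) and Pdyn (0.90 and 0.74). For Pdyn they were Matn2 (0.93 and 0.89) and C1ql2 (0.91 and 0.72). For Scg2 they were Rph3al (0.91 and 0.60) and C1ql2 (0.89 and 0.50). Tac2 and Sstr2 had the same nearest gene, Pmaip1, at 0.86 and 0.89 in all libraries and 0.65 in the tTA+ libraries for each. The next were Il1rapl2 for Tac2 (0.86 and 0.67) and Dync1li1 for Sstr2 (0.84 and 0.51).

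Chgb went with Hnrnpm (0.94 and 0.96) and Gas2l1 (0.93 and 0.93), Vgf with Dlgap4 (0.90 and 0.94) and Zbtb7a (0.90 and 0.95), and Crh with Gm11549 (0.90 and 0.91) and Bglap3 (0.88 and 0.88). Nts went with Ufsp2 (0.88 and 0.84) and Them4 (0.86 and 0.89), and Tac1 with Tmem40 (0.79 and 0.87) and Serpinf2 (0.745 and 0.73). The libraries share batches and depth, and no p is given.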
